A study of Danio rerio with 6 samples.

Results

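The T-box genes *eomesa*, *tbxta*, *tbxtb*, *tbx16*, *tbx16l* and *tbx6*, which encode DNA-binding factors of the early mesoderm and endoderm, were read in zebrafish blastulas with raised Nodal signalling. Every feature that the platform annotation names as one of these genes was taken, which gave 9 of the 45220 features on the array and 5 of the 14434 named genes. They were 3 features of *eomesa*, 2 of *tbx16*, 2 of *tbx16l* and 1 each of *tbxta* and *tbx6*, and *tbxtb* is not listed. Some names have moved between genes over time. The gene here called *tbx16l* was formerly *tbx6l* or *tbx6*, the gene here called *tbx6* was formerly *tbx24*, and both were told apart by Entrez number. RNA came from whole AB embryos at sphere stage, a blastula stage soon after the embryo's own genome becomes active. Per the labels, 3 control-injected samples received 1 nl of water and 3 *ndr1*-injected samples 1 nl with 50 pg of mRNA for the Nodal ligand gene *ndr1*, about 200 embryos a sample. The injected RNA reaches cells of the whole embryo, whereas Nodal ligands normally act from the margin, and the water control holds no other mRNA.

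T-box proteins share one conserved DNA-binding domain, the T-box, and bind closely related sites. In the zebrafish, *eomesa* mRNA is laid down by the mother and Eomesa works with Smad2, the intracellular effector of Nodal signalling. *tbxta* (also *ntla* or no tail) is switched on in the margin by Nodal and FGF signals and is needed for notochord and tail. *tbx16* (spadetail) acts in the marginal mesoderm and is needed for trunk somites. *tbx16l* is a paralogue of *tbx16* in ventral and posterior mesoderm, and *tbx6* (fused somites) acts later, in the segmenting mesoderm.

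The values are log2 signals of a 1-colour array, normalised by the authors. Array medians lay between 8.70 and 8.71, and correlations between arrays across features ran from 0.836 to 0.886 among control-injected and from 0.920 to 0.926 among *ndr1*-injected samples. Between the groups they ran from 0.820 to 0.928, so the arrays did not separate by group on this measure. Signals also varied with where on the slide a feature sat, a position trend that differed between arrays. Each difference is given as deposited, and values after subtraction of this trend, in a window of 9 features unless another is named, stand beside some of them. Whether the replicates are separate clutches is not given, so the p-values describe the spread among these 6 arrays, which may be technical. No detection calls were at hand, so neither the stage nor any cell type could be checked from absent markers. The *ndr1* feature read 10.6, 10.1 and 10.9 in control-injected replicates 1 to 3 and 13.8, 14.8 and 13.9 in *ndr1*-injected replicates 1 to 3. All *ndr1*-injected arrays were thus above all control-injected arrays, as labelled, and the difference was 3.65 ± 0.37 (SE, log2), with an adjusted p of 0.0658 in the limma fit over genes (3.27 and 0.0120 once the position trend was subtracted).

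*tbxta* showed the greatest difference of the 5 genes. Its feature read 10.64, 10.38 and 10.69 in control-injected replicates 1 to 3. It read 13.47, 12.79 and 12.71 in *ndr1*-injected replicates 1 to 3. The control-injected arrays lay close to each other, and the lowest *ndr1*-injected array was well clear of the highest of them. The means were 10.6 ± 0.17 and 13.0 ± 0.42 (SD, n = 3), a difference of 2.42 ± 0.28 (SE) with a 95% interval from 1.76 to 3.08, or 5.35-fold. Among all named genes *tbxta* was in position 6 by p and in position 18 by difference. The adjusted p of limma was 0.112 over genes and 0.231 over features, so that *tbxta* missed the threshold of 0.05. By exact permutation (two-sided) p was 0.1, and no smaller p is possible with 3 arrays against 3. In whole embryos, more cells with *tbxta* mRNA and more *tbxta* mRNA per cell cannot be told apart. With the position trend subtracted in a window of 9 features the difference was 2.72 and the adjusted p of limma 0.0116, and an intensity trend with robust variance gave 2.42 and 1.20e-04.

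**Figure D1:**
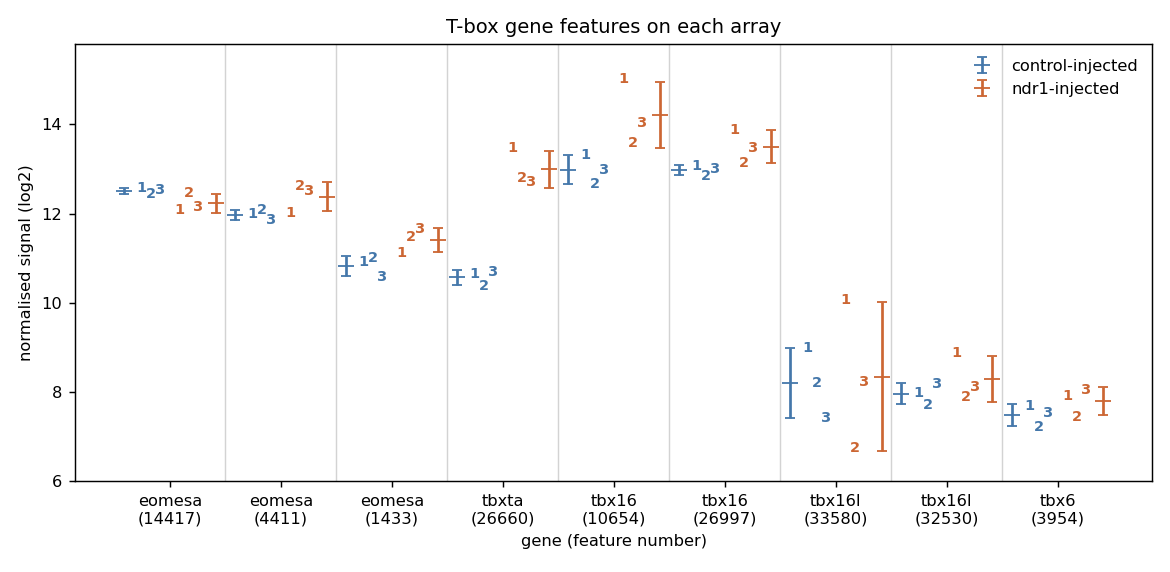
Normalised log2 signal (y axis) of the 9 T-box features (x axis, gene with feature number) on the control-injected (blue) and *ndr1*-injected (orange) arrays; digits are replicate numbers, and bars are the mean ± SD of 3 arrays. The *tbxta* feature is at 10.38 to 10.69 in control-injected and 12.71 to 13.47 in *ndr1*-injected samples, whereas the groups overlap for *tbx16l* and *tbx6*; levels of different features cannot be compared.

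*tbx16* was also higher, by less. Its brighter feature (10654) read 13.31, 12.66 and 12.98 in control-injected and 15.03, 13.59 and 14.03 in *ndr1*-injected replicates 1 to 3. Its other feature (26997) read 13.06, 12.85 and 13.00, then 13.88, 13.14 and 13.47. On both features the groups did not overlap, and *ndr1*-injected replicate 1 was the highest and replicate 2 the lowest of its group. The difference was 1.23 ± 0.40 (SE over genes) or 2.35-fold on the first and 0.53 ± 0.30 (SE over features) or 1.44-fold on the second. Neither passed the threshold, with adjusted p of 0.711 over genes for the first and 0.740 over features for the second. The first feature rose by 0.71 more than the second in the same arrays (SE 0.25, exact permutation p = 0.1, the smallest possible). With the position trend subtracted it rose by 0.56 ± 0.55 (SE) more, with overlapping groups (exact permutation p = 0.4). Without *ndr1*-injected replicate 1 the brighter feature differed by 0.83, and without *ndr1*-injected replicate 2 by 1.54, neither past the threshold (adjusted p of limma 0.949 and 0.511). Once the position trend was subtracted the brighter feature differed by 1.51 ± 0.52 with overlapping groups, and the other by 0.95 ± 0.33 without overlap (adjusted p of limma over features 0.735 for both).

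The 3 features of *eomesa* went different ways. The brightest (14417) read 12.57, 12.44 and 12.53 in control-injected and 12.07, 12.47 and 12.14 in *ndr1*-injected replicates 1 to 3, so the groups overlapped. The next (4411) read 11.99, 12.07 and 11.85, then 12.002, 12.61 and 12.51. The dimmest (1433) read 10.91, 10.999 and 10.58, then 11.12, 11.47 and 11.64, the one feature of the 3 whose groups did not overlap. The differences were -0.28 ± 0.22 (SE over genes, adjusted p of limma 0.770), 0.40 ± 0.29 and 0.58 ± 0.29 (SE over features). The 95% interval of the brightest feature ran from -0.81 to 0.24 as deposited, so a rise as great as that of *tbxta* lies outside it.

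The sign of each *eomesa* feature turned with the position trend. The trend around the brightest feature was lower in *ndr1*-injected than in control-injected arrays by 0.87 log2 units, and around the other 2 it was higher by 0.70 and 0.60. After subtraction the features differed by 0.59, -0.29 and -0.02, in the order above. The brightest feature had changed by -0.68 ± 0.15 (SE) relative to the next as deposited, and by 0.88 ± 0.38 after subtraction. With the mean of its features *eomesa* differed by 0.23 (adjusted p of limma 0.782). No direction is therefore given for *eomesa*. The feature of *eomesb*, its paralogue, read 9.66 ± 0.44 and 9.63 ± 0.57 (SD, n = 3), a difference of -0.04 ± 0.37 (SE). It was above the array median on every array, but the study reports no *eomesb* expression by RNA sequencing of wild-type sphere embryos. Whether this feature reads *eomesb* mRNA is thus not known, and that limits the comparison that follows. *eomesa* and *eomesb* differed in their change by -0.25 with a 95% interval from -1.55 to 1.06, and by 0.55 once the position trend was subtracted.

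**Figure D2:**
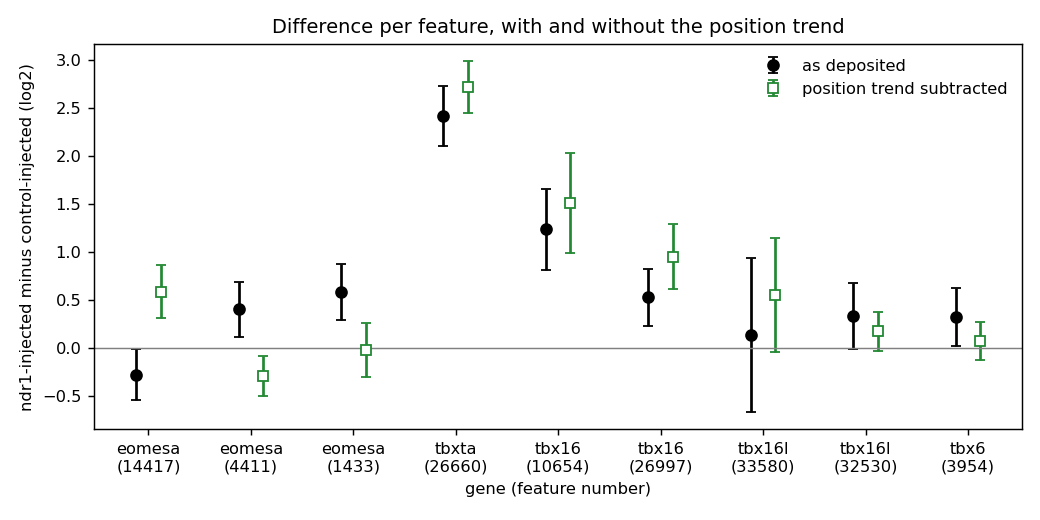
Difference between *ndr1*-injected and control-injected arrays (y axis, log2, ± SE of the limma fit over features) for the 9 T-box features (x axis), as deposited (black) and with the position trend subtracted (green). *tbxta* is at 2.42 and 2.72 and the brighter *tbx16* feature at 1.23 and 1.51, whereas the 3 *eomesa* features change sides of the zero line.

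*tbx16l* and *tbx6* gave small or scattered differences. The first feature of *tbx16l* (33580) read 8.99, 8.20 and 7.43 in control-injected and 10.06, 6.73 and 8.23 in *ndr1*-injected replicates 1 to 3. Both the highest and the lowest of these 6 values came from *ndr1*-injected arrays, and the difference of 0.14 ± 0.82 (SE) has a 95% interval from -1.81 to 2.08. It was -0.72 without *ndr1*-injected replicate 1, -0.25 without control-injected replicate 3, and 0.94 without *ndr1*-injected replicate 2. The other *tbx16l* feature (32530) read 7.98, 7.71 and 8.18, then 8.88, 7.89 and 8.10, a difference of 0.33 ± 0.35. After subtraction of the position trend the *tbx16l* features differed by 0.55 ± 0.60 and 0.17 ± 0.21. *tbx6* read 7.69, 7.21 and 7.54, then 7.91, 7.44 and 8.05, a difference of 0.32 ± 0.27 with overlapping groups (adjusted p of limma 0.779), and 0.07 once the position trend was subtracted. The signal of *tbx6* was below the array median on 6 of 6 arrays, and that of the *tbx16l* features on 4 and 5. Whether these features were above background is not known, so these values do not show whether either gene responded.

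Over the whole family of 5 genes, 0 passed the threshold with limma, against 3 of all 14434 genes or 0.0208%, and no member was called in the lower direction either, where the share of all genes was 0%. At an unadjusted p below 0.05, 2 members (*tbxta* and *tbx16*) were higher, and 4.34% of all genes were, while 0 members were lower against 2.59% of all genes. The same 2 had a p of at most 0.02, against 1.72% of all genes. Their groups did not overlap either, which held for 8.11% of all genes in the higher direction and, with 0 members, 5.86% in the lower. For *tbx16* these gene counts rest on its brighter feature, picked by its mean over all 6 arrays. The other *tbx16* feature had an unadjusted p of 0.116 in the limma fit over features. After subtraction of the position trend *tbxta* was the 1 member called with a window of 9 features, against 0.111% of all genes, and 0 members were called with a window of 5, against 0.0485%. In the fit over features 2 of the 9, *tbxta* and the brighter *tbx16* feature, were higher at an unadjusted p below 0.05, against 3.69% of all features. After subtraction both *tbx16* features and *tbxta* were, against 3.54%, and 1, *tbxta*, was called, against 0.0619%. Feature by feature, 4 of the 9 had every *ndr1*-injected array above every control-injected array, namely *tbxta*, both *tbx16* features and the dimmest *eomesa* feature, against 7.53% of all features. After subtraction of the trend 3 did, against 6.78% of all features, and these were *tbxta*, the dimmer *tbx16* feature and the brightest *eomesa* feature. The median difference was 0.32 over the 5 genes and 0.01 over all named genes.

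Among the *ndr1*-injected arrays, replicate 1 was the highest on 5 of the 9 features, those of *tbxta*, *tbx16* and *tbx16l*, and the lowest on the 3 *eomesa* features. Replicate 2, which had the highest *ndr1* signal, was the lowest on 5 features, those of *tbx16*, *tbx16l* and *tbx6*. The order of the arrays by *ndr1* signal was thus not their order by *tbxta* or *tbx16* signal. The position trend around the *tbxta* feature was -0.23, 0.06 and -0.48 log2 units in *ndr1*-injected replicates 1 to 3. Around both *tbx16* features it was highest in replicate 2, where their signal was lowest. Around the dimmer *tbx16l* feature it was highest in replicate 1, as the signal was, at 0.59 against -0.01 and -0.06. Around the brighter *tbx16l* feature it was 0.001, -0.85 and -0.004, nearly the same in replicates 1 and 3. Around the brightest *eomesa* feature and the next it was lowest in replicate 1, at -0.57 and 0.12, as their signals were. Around the dimmest *eomesa* feature it was lowest in replicate 2, at -0.01 against 0.42 in replicate 1, where the signal was lowest. The part of the trend in these orders was not tested.

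The size of the change was compared between genes within each array, over 13 pairs of features in all. *tbxta* changed by 1.19 ± 0.26 (SE) more than *tbx16*, by 2.70 ± 0.33 more than *eomesa* on its brightest feature, and by 2.1 ± 0.28 more than *tbx6*. In each of these pairs the 2 groups did not overlap, and the exact two-sided permutation p was 0.1, the smallest possible, or 0.163 after Benjamini-Hochberg adjustment over the 13 pairs. Against *tbx16l* the difference was 2.28 ± 0.90 with a 95% interval from -0.22 to 4.79. With the position trend subtracted, *tbxta* changed by 1.21 ± 0.55 more than *tbx16* and by 2.13 ± 0.36 more than the brightest *eomesa* feature. It then changed by 2.65 ± 0.24 more than *tbx6* and by 2.17 ± 0.57 more than *tbx16l*, again without overlap in any of these pairs. The *eomesa* values depend on a feature whose sign turned with the trend. *tbx16* changed by 1.10 ± 0.67 more than its paralogue *tbx16l*, with overlapping groups (95% interval from -0.77 to 2.97, exact permutation p = 0.2), and *tbx16l* by -0.19 ± 0.95 against *tbx6* (exact permutation p = 1). Once the position trend was subtracted the former was 0.96 ± 0.35 with no overlap (exact permutation p = 0.1) and the latter turned to 0.47 ± 0.74 (exact permutation p = 0.7). All pairs between genes that hold *tbx16* or *tbx16l* used the brighter feature of each. The dimmer features of *tbx16* and *tbx16l* differed between groups by 0.53 and 0.33 as deposited, and were not compared as a pair. These comparisons with *tbxta* were chosen after its values had been seen.

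**Figure D3:**
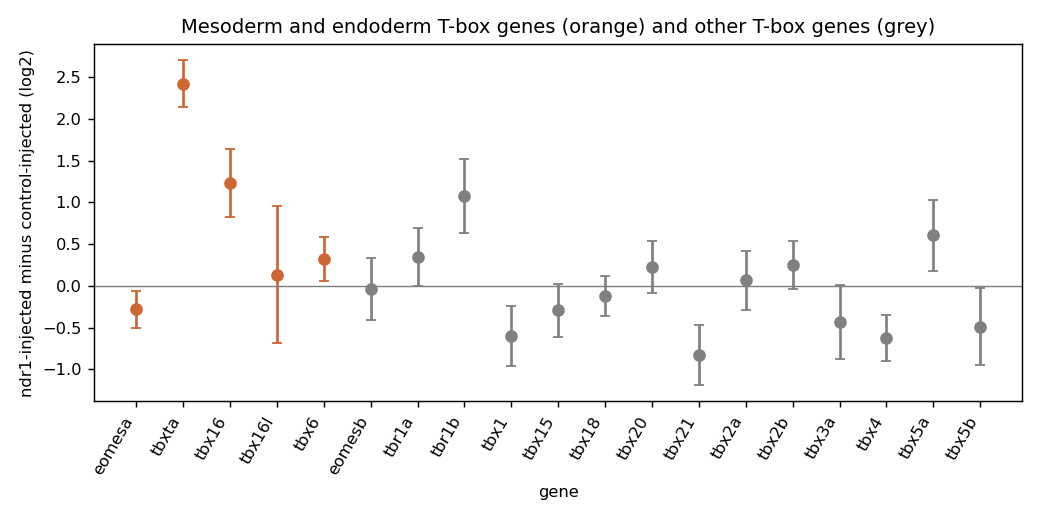
Difference between *ndr1*-injected and control-injected arrays (y axis, log2, ± SE of the limma fit over genes) for the 5 T-box genes of mesoderm and endoderm (orange) and 14 other T-box genes (grey). *tbxta* at 2.42 and *tbx16* at 1.23 (its brighter feature) lie above all 14 others, which run from -0.83 to 1.07. The bars of *tbx16* and *tbr1b* overlap. The other *tbx16* feature (0.53, not drawn) and the mean of both (0.88) fall within the range of the others.

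The other T-box genes act mostly in later organs, such as heart, limb buds and forebrain. Of 18 listed, 14 were measured and 0 were called in either direction, against 0.0208% of all genes. Their median difference was -0.08. This median was -0.19 without *ndr1*-injected replicate 1, -0.01 without *ndr1*-injected replicate 3, and 0.02 with the mean of features. They ran from -0.83 for *tbx21* (SE 0.36), a lymphocyte gene in mammals, to 1.07 for *tbr1b* (SE 0.44), a forebrain gene. *tbr1b* had an unadjusted p of 0.0444 and an adjusted p of 0.712 in limma, and was at 0.44 once the position trend was subtracted. *tbx4*, a gene of paired fins, differed by -0.62 ± 0.28 (-0.13 once the position trend was subtracted, and -0.96 on its other feature as deposited).

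Of 13 listed partners and upstream regulators of these factors, 11 were measured and 0 were called, against 0.0208% of all genes. The median difference was -0.13 (0.19 once the position trend was subtracted, and from -0.32 to 0.06 without each array in turn). The homeobox gene *mixl1* read 11.3 ± 0.52 and 14.2 ± 0.44 (SD, n = 3) and differed by 2.83 ± 0.36 (SE, adjusted p of limma 0.112). It was the 1 gene of the list called after subtraction in a window of 9, against 0.111% of all genes. With windows of 5, 15 and 25 features 0, 3 and 2 genes of the list were called, against 0.0485%, 0.18% and 0.166% of all genes. The endoderm genes *gata5* and *sox32* differed by 2.06 ± 0.45 and 2.16 ± 0.49. The maternal regulators of genome activation gave smaller values, with *nanog* at -0.14 ± 0.30, *pou5f3* at -0.01 ± 0.21 and *sox19b* at -0.42 ± 0.32. Once the position trend was subtracted they were at -0.54, -0.60 and 0.19. The other *sox19b* features ran from -0.28 to -0.12 as deposited. *smad2*, whose product partners Eomesa, was at -0.16 ± 0.25 (-0.62 once the position trend was subtracted, and 0.15 on its other feature). The 6 Nodal ligand and antagonist genes had a median of 2.02, with 0 called as deposited, against 0.0208% of all genes. Once the position trend was subtracted 2 were called, *ndr1* and *lft2*, against 0.111% of all genes. *ndr1* is the injected gene, so its rise in this median and among these calls may include the injected RNA itself. These values cannot tell injected *ndr1* RNA from the embryo's own. Of the list, the antagonist genes *lft1* and *lft2* differed by 4.2 ± 0.50 and 3.66 ± 0.46, the former 18.3-fold. The differences of *ndr2*, *dand5* and *gdf3* were smaller, at 0.38 ± 0.33, 0.29 ± 0.44 and 0.15 ± 0.21.

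Of 30 genes of the axial and paraxial mesoderm that act with or after T-box factors, 26 were measured and 24 of these had a difference above 0, as had 7296 of all 14434 genes. With limma 0 were called, against 0.0208% of all genes, and the median was 0.69. At an unadjusted p below 0.05, 10 were higher and 1 lower (4.34% and 2.59% of all genes). After subtraction of the position trend in a window of 9, 3 were called, *fgf8a*, *fgf3* and *foxa2*, against 0.111% of all genes. The notochord gene *noto* differed by 1.93 ± 0.23 (SE), the FGF ligand gene *fgf8a* by 2.72 ± 0.32 and the Wnt ligand gene *wnt11* by 1.56 ± 0.27, against -0.31 on the dimmer *wnt11* feature. With the position trend subtracted *noto*, *fgf8a* and *wnt11* were at 1.76, 2.67 and 1.13 (adjusted p of limma 0.789, 0.00279 and 0.709). *cyp26a1*, a retinoic acid degrading enzyme gene, was the 1 member with a negative difference at an unadjusted p below 0.05, at -0.64 ± 0.22. The list was compiled with earlier results of these data known, so its count is not independent evidence.

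Markers of other parts of the blastula were read beside these genes. In any of 5 lists 0 members were called, against 0.0208% of all genes. The summed linear signal of 7 of 8 ectoderm markers was 10764 to 11413 in control-injected and 7890 to 9475 in *ndr1*-injected arrays, with no overlap. Such a sum weighs bright genes most, and no share over all genes stands beside it. Their median difference was -0.19 (0.06 once the position trend was subtracted). As deposited, 0 of 7 were above 0 on the feature used, against 7296 of all 14434 genes. This count depended on the feature and on the position trend. *otx2b* was at -0.07, with its other features at 0.50 and 0.42. Once the trend was subtracted *otx2b*, *sox2* and *foxi1* turned to 0.31, 0.11 and 0.06, whereas *sox3*, *gata2a* and *dlx3b* stayed below 0. *sox3*, an early neural gene, was at -0.73 ± 0.20 (SE), with each of its other features below 0 as well. *gata2a* was at -0.22. *tfap2a* was at -0.19, with its other features at 0.88, -0.40 and 0.27, and turned to 0.41 once the position trend was subtracted. For 9 of 10 enveloping layer markers the sums were 35280 to 41967 and 30780 to 64340, and the median was 0.02 (from -0.32 to 0.37 without each array in turn), with the keratin gene *krt18a.1* at 1.45, *evpla* at 0.90 and *anxa1c* at -0.78. For 7 of 8 yolk syncytial layer markers they were 8823 to 11099 and 9063 to 15463, and the median was 0.42, with *gata6*, which is also an endoderm gene, at 2.31, *hhex* at 0.42 and *hnf4a* at 0.46. The rest were *slc26a1* at 0.60, *mxtx1* at 0.09 (-0.09 on its other feature), *mxtx2* at -0.04 and *apobb.1* at 0.08 (-1.32 on its other feature). The median of this list was -0.07 without *ndr1*-injected replicate 1, and ran up to 0.57 with another array left out. All 6 germ plasm markers were measured, with sums of 17907 to 18826 and 14544 to 20371 and a median of -0.19 (0.03 once the position trend was subtracted, and 0.01 without *ndr1*-injected replicate 1), and *dazl*, *tdrd7a* and *nanos3* were at -0.35, 0.28 and -0.31, of which *dazl* turned to 0.24 once the position trend was subtracted. For 5 of 6 maternal genes the sums were 16605 to 25868 and 12878 to 21385 and the median was -0.18 (-0.55 once the position trend was subtracted, -0.38 without *ndr1*-injected replicate 2 and -0.11 without *ndr1*-injected replicate 1), with *gdf9* at -0.52, *bmp15* at -0.60 and *zp2.1* at -0.16. The rest were *btg4* at -0.18 and *zp3b* at 0.49 (-0.52 on its other feature). No marker was listed at 0. The part of these shifts in the values of the T-box genes was not tested.

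The genes whose pattern over the 6 arrays was nearest to each T-box gene were read as a description. Likeness was the root mean square difference between the deviations of each gene from its own mean, over 14433 other genes. Nearest to *tbxta* were *cyp27c1*, a retinoid enzyme gene, at 0.183 log2 units, *id3*, whose product holds back bHLH transcription factors, at 0.219, and *tagln2*, an actin-binding protein gene, at 0.244. They differed between groups by 2.58, 2.52 and 2.67. Nearest to *tbx16* were *mapk12b*, a p38 kinase gene, at 0.138, *ptk7a*, a planar cell polarity gene, at 0.180 and *tcta* at 0.193. Nearest to *eomesa* were *arl6*, *tardbpb* and *pcna* at 0.029 to 0.033, and to *tbx6* *chp1*, *ppil2* and *ripply2* at 0.046 to 0.053, distances that are small where a gene itself varied little. For *tbx16l* the nearest, *phlda2*, *cav1* and *zgc:77614*, were farther, at 0.352 to 0.398.

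**Figure D4:**
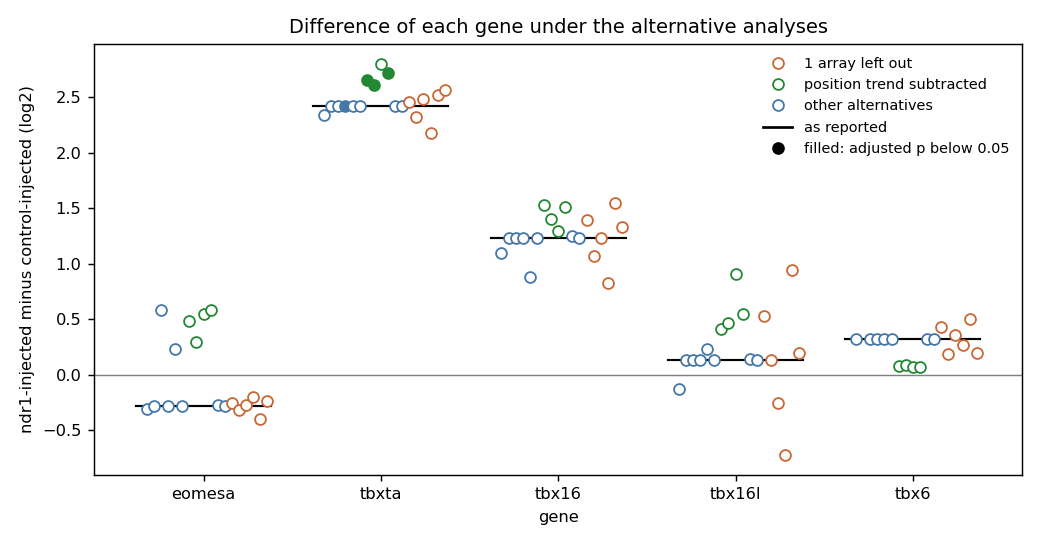
Difference between *ndr1*-injected and control-injected arrays (y axis, log2) for each T-box gene (x axis) as reported (black lines) and under each alternative analysis (circles, filled where the adjusted p of limma was below 0.05). *tbxta* stays between 2.18 and 2.80 and *tbx16* between 0.83 and 1.54, whereas *eomesa* and *tbx16l* fall on both sides of 0.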

How the data were processed

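Total RNA of 6 samples of about 200 embryos was labelled with an Alexa Fluor dye and hybridised to 1-colour Agilent Zebrafish Gene Expression Microarrays (V2), scanned on an Axon GenePix scanner. In the deposited table each feature has a log2 value for every array, after qspline normalisation by the authors. The log2 scale was read from the range of values, 4.92 to 16.3. How background was corrected is not given in the sources used here. Sample titles gave the groups and replicate numbers. The general methods of the study give another *ndr1* amount and an *egfp* control, and the labels were followed here. Positions of the probes in their transcripts are not known here.

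Features were named through the platform annotation. Of 45220, 21061 had 1 symbol, 0 had several and 24159 are not listed. Symbols were updated to RefSeq GRCz12tu names by Entrez number (20133) or accession (409), and 519 were kept.

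limma 3.58.1 (lmFit, then eBayes; R 4.3.3) estimated differences with no covariate, over all named genes (each by its feature with the highest mean) and over all features, with Benjamini-Hochberg adjustment and a threshold of 0.05. The study gives a cutoff of 0.02. Single values and pairs used exact two-sided permutation tests over 20 splits. The position trend was an array's departure from the median array, as a local median over a square window on a feature grid 85 columns wide, read from how strongly features a fixed number apart correlated. Intervals are 95%.

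Named genes are the members with every feature, *ndr1*, *eomesb*, in each list 3 genes by smallest p, and the 3 nearest patterns of each member. *nanog*, *pou5f3*, *sox19b*, *smad2*, *cyp26a1*, *fgf3*, *foxa2*, *otx2b*, *sox2*, *foxi1* and *dlx3b* fall outside this rule and were picked with their values known. Members, lists, tests and alternatives were chosen with earlier results of these data known. The lists were other T-box genes, partners and upstream regulators, axial and paraxial mesoderm, Nodal ligands and antagonists, and 5 marker lists. Alternatives were each array left out, array weights, median centring, quantile normalisation, a replicate block, the dimmest 25% of features left out, robust variance with an intensity trend, position subtraction and other gene rules.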

Additional observations from a re-analysis of the deposited data

How the results depend on the processing

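The number of arrays and, for *tbx16l* and *tbx6*, low signal limit these values. Of 5 T-box genes 0 were called as reported, and 1, *tbxta*, with an intensity trend and robust variance (2.42, adjusted p of limma 1.20e-04) and with the position trend subtracted in windows of 9, 15 and 25 features (2.72, 2.65 and 2.61). In the same order, these fits called 0.166%, 0.111%, 0.18% and 0.166% of all genes higher. A window of 5 gave 2.80 and an adjusted p of 0.0505. Without each array in turn *tbxta* ran from 2.18 to 2.56 (adjusted p 0.211 to 0.519). At an unadjusted p of at most 0.02, 2 members were called. *tbx16* and *tbx6* kept their direction and passed under none of 18 and 17 alternatives. *tbx6* has no value with the dimmest 25% of features left out.

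*eomesa* turned from -0.28 to 0.58 by its feature with the largest interquartile range, to 0.23 by the mean of features and to 0.55, 0.59, 0.48 and 0.30 with windows of 5, 9, 15 and 25. Its feature 4411 turned to -0.25, -0.29, -0.27 and -0.19 with these windows, and its feature 1433 to -0.056, -0.023 and -0.080 with the first 3. The change of *eomesa* relative to *eomesb* became 0.55 with a window of 9, and that of its brightest feature relative to the other 2 became 0.88 and 0.61. *tbx16l* turned to -0.13 with array weights over genes and -2.65e-04 over features, and without each array in turn ran from -0.72 to 0.94. Apart from the subtraction itself, which shifts single features, the cause was not tested.

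Genes called among all 14434 numbered 3 as reported and 0 to 27 over the alternatives. With the replicate number as a block *tbxta* differed by 2.42 with an adjusted p of 0.480 and *tbx16* by 1.23 with 0.707, and 0 genes were called, so the block changed no call among the T-box genes. The numbers share no origin in the labels, and the deviations of same-numbered arrays correlated at 0.179, -0.101 and 0.040. Those of differently numbered arrays correlated at -0.256 to 0.222.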
